A study of Mus musculus with 1 sample.

Results

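This section describes the genes of 3 families of cell adhesion receptors, the cadherins, the protocadherins and the integrins, in single cells of the postnatal mouse adrenal medulla. The members were chosen by name alone, as every gene whose symbol is Cdh, Pcdh or Itgb followed by a number, or Itga followed by a number or a letter. There are 60 members among the 32285 genes of the count table, of which 23 are cadherins, 11 protocadherins, 18 integrin alpha subunits and 8 integrin beta subunits. The cells came from mice at postnatal day 15, females and males together, and 1 droplet library was made from 10 adrenals of 5 animals after most of the cortex had been dissected away. The paper names no genotype for these animals and reports that its mice had mixed backgrounds with backcrossing on CD1. Because the mice were pooled and there is 1 library, there are no replicates, no test between samples was possible, and every interval given is a 95% interval that covers counting error only.

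Classical cadherins hold neighbouring cells together by binding to cadherins of the same kind on the next cell, in the presence of calcium, and they anchor to the actin cytoskeleton through catenins. Protocadherins share the extracellular cadherin fold, lack the catenin-binding tail and are best known from the sorting of neurons. Integrins work as pairs of 1 alpha and 1 beta subunit, most of which bind collagen, laminin, fibronectin or other matrix proteins, while those of leukocytes bind adhesion molecules on other cells. In the medulla, chromaffin cells, which release adrenaline or noradrenaline, descend from the neural crest and lie beside glia-like sustentacular cells and a dense net of fenestrated capillaries.

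The library held 11214 barcodes with 500 to 33809 unique molecular identifiers (UMIs, each marking 1 captured transcript), and 10139 of them passed quality control with a median of 3567 UMIs. Clusters were named from marker genes, and no member was used to form or to name a cluster. The 6 lineage classes were 2152 chromaffin-like, 176 sustentacular-like, 3710 cortex-like, 2147 endothelial-like, 626 immune-like and 91 fibroblast-like cells. The chromaffin-like class comprised 1670 adrenaline cells, which express *Pnmt*, 390 noradrenaline cells and 92 cycling cells. A further 321 transitioning noradrenaline-like and 92 transitioning adrenaline-like cells carried both chromaffin and sustentacular markers, and 43 cells were T cell-like. Clusters with markers of unrelated classes, 781 cells in all of which 66.3% were called doublets, were left out. Median depth ran from 1137 UMIs in sustentacular-like cells to 6429 in transitioning adrenaline-like cells, and 2 of the markers that name the sustentacular-like cells, *Scn7a* and *Col28a1*, were among their 10 leading genes. Markers of the endothelial list summed to 58.2% of their endothelial-like level in the fibroblast-like class and to 12.1% in the immune-like class, so endothelial members are given there with that share beside them.

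The level of a gene in a class is its UMIs summed over the cells of that class, divided by all UMIs of the class and scaled to 1000000 (CPM). Levels were not divided by transcript length and are compared between classes, not between genes. Of the 60 members, 6 had no UMI in any barcode. They were *Cdh1* and *Cdh3*, the E- and P-cadherins of epithelia, *Cdh16*, *Cdh26*, *Itgad* and *Itgb6*, and a count of 0 allows a level of up to 0.0583 CPM over all barcodes. Another 15 had fewer than 30 UMIs in classed cells, and 39 members reached that minimum, namely 12 cadherins, 8 protocadherins, 12 alpha and 7 beta subunits. Summed over all members, the level was highest in sustentacular-like cells at 3188 CPM (2959 to 3431), followed by 2815 CPM (2772 to 2859) in endothelial-like and 2804 CPM (2615 to 3003) in fibroblast-like cells. It was 1394 CPM in immune-like, 790.0 CPM in cortex-like and 765.1 CPM in chromaffin-like cells. The interval of the sustentacular-like class overlapped that of the fibroblast-like class and lay above that of the endothelial-like class, and all 3 lay above the remaining classes. The sustentacular-like sum includes *Itga1*, *Itgb1* and *Itga6*, at 657.4, 366.7 and 143.1 CPM. By the rule given with the integrin pairs, these 3 did not count as present in that class. The order of the classes rests in part on them, and the part of carried-over RNA in the sums was not tested.

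**Figure D1:**
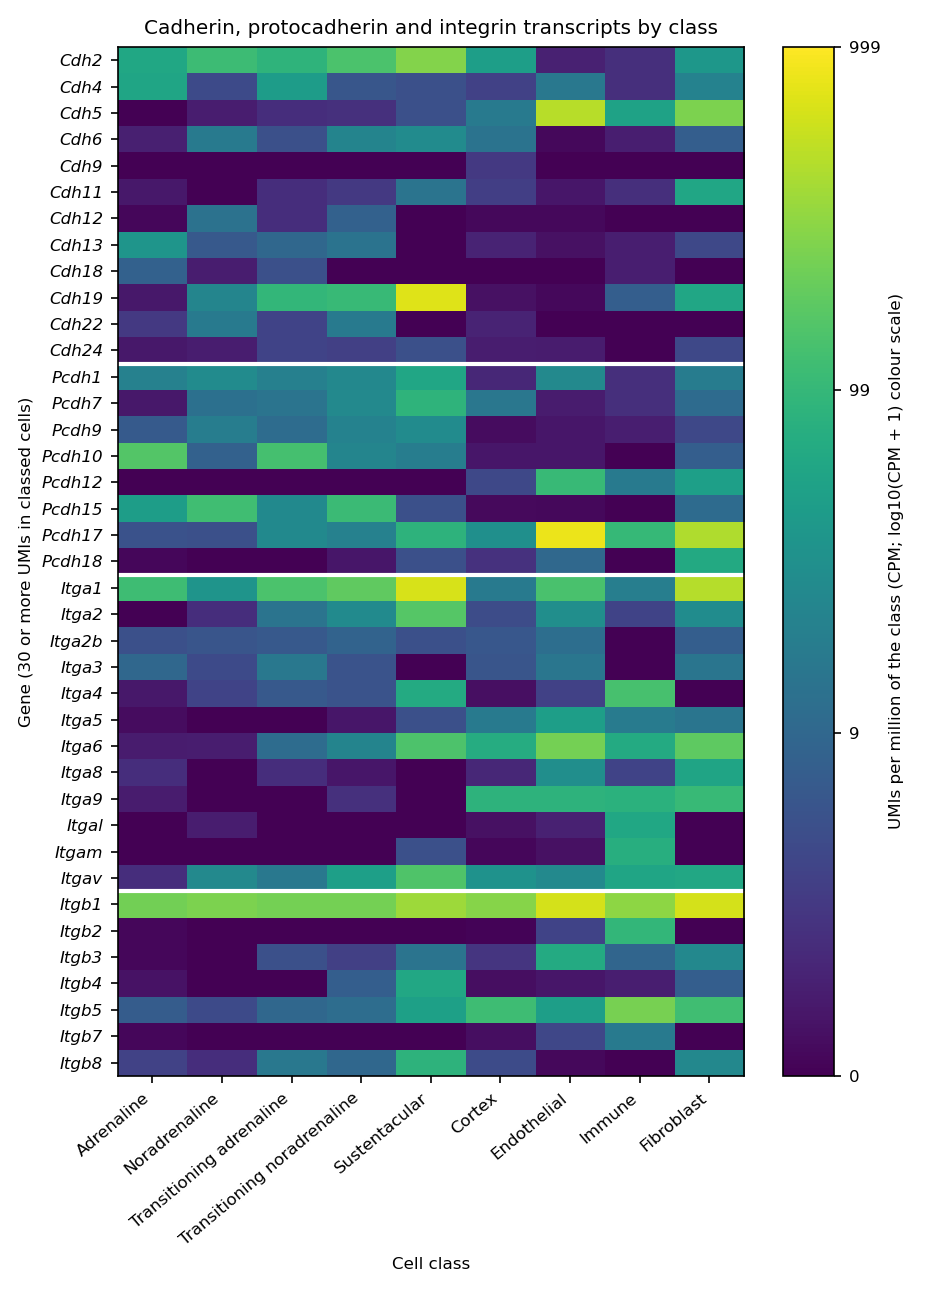
Level of the 39 members with at least 30 UMIs in classed cells (rows) in 9 classes (columns), as CPM on a log10(CPM + 1) colour scale. White lines part cadherins, protocadherins, integrin alpha and integrin beta subunits. *Itgb1* is bright in every column, *Cdh19* in sustentacular-like cells, *Cdh5* and *Pcdh17* in endothelial-like cells and, at a lower level, in the fibroblast-like class.

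A member was called for a lineage class when its level plus 10 CPM was at least 4 times that in each of the other 5. The sustentacular-like class had 4 called members, *Cdh19*, *Pcdh7*, *Itga2* and *Itgb4*, where 1.15% of the 14471 genes tested were called. With 10 CPM added, their folds over the next class were 10.5, 4.06, 4.35 and 4.30. Member genes allowed among the variable features, resolution 0.8, 30 principal components and removal of doublets each left 3 called members (1.11% to 1.12% of genes). Resolution 0.2 kept 4 (1.12%). The immune-like class had 3, *Itgal*, *Itgam* and *Itgb2*, where 1.83% of genes were called. *Pcdh10* was called for the chromaffin-like class, where 1.46% of genes were called. No member was called for the cortex-like class, with 0.753% of genes called, for the endothelial-like class, with 0.0138%, or for the fibroblast-like class, with 0.428%. The other 31 members with enough UMIs were shared by several classes or fell short of the 4-fold. Over the 39 members the median fold of the highest class over the next was 1.96, beside 1.23 over all genes tested. With the fibroblast-like class left out, an alternative chosen after the data had been seen, *Cdh5*, *Pcdh12* and *Pcdh17* were called for the endothelial-like class, where 1.06% of genes were called, *Itga1* and *Itgb8* also for the sustentacular-like class (1.63% of genes), and *Pcdh15* also for the chromaffin-like class (1.86%). The cortex-like class still had none (0.978% of genes) and the immune-like class the same 3 (1.98%).

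The protocadherins *Pcdh10* and *Pcdh15* divided the chromaffin types in opposite directions. *Pcdh10*, a delta-2 protocadherin known from axon growth, stood at 156.4 CPM (147.5 to 165.7) in adrenaline cells and at 7.45 CPM (3.57 to 13.7) in noradrenaline cells, a ratio of 21.0 (11.4 to 43.9). A UMI of it was found in 38.3% of adrenaline and 2.31% of noradrenaline cells, beside 0.0931% of endothelial-like cells. The 1658 adrenaline and 367 noradrenaline cells with at least 1000 UMIs were also thinned to that depth, which gave shares of 13.4% and 0.817%. *Pcdh15*, a part of the tip links of inner ear hair cells, stood at 46.0 CPM (41.2 to 51.2) in adrenaline and at 118.4 CPM (100.7 to 138.3) in noradrenaline cells, 2.57 times as high (2.12 to 3.12) in the latter. Outside the medulla neither was above 10.3 CPM in any lineage class. Both genes were found together in 153 of 1670 adrenaline cells and in 7 of 390 noradrenaline cells, so the genes did not exclude each other within the adrenaline type.

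A gene was called between the chromaffin types when its level plus 10 CPM differed at least 2-fold. Of the members with at least 30 UMIs in both types together, 4 were higher in adrenaline cells, where 1.93% of 10857 genes were called, and 4 in noradrenaline cells, where 2.48% were called. Beside *Pcdh10*, the adrenaline group held 2 cadherins and an integrin. *Cdh4*, the R-cadherin of retina and brain, was at 56.5 CPM in adrenaline and 3.72 CPM in noradrenaline cells, a ratio of 15.2 (6.45 to 47.0). *Cdh13*, a cadherin held in the membrane by a lipid anchor, was at 35.5 and 5.96 CPM, a ratio of 5.96 (2.98 to 14.0). *Itga1*, an alpha subunit for collagen, was at 114.8 and 34.3 CPM, a ratio of 3.35 (2.49 to 4.61). Over the 3 adrenaline clusters *Pcdh10* ranged from 127.3 to 167.3 CPM, *Cdh4* from 42.8 to 62.3 CPM, *Cdh13* from 17.1 to 40.02 CPM and *Itga1* from 82.0 to 128.5 CPM. In each case all 3 levels were above that of the noradrenaline cells, without regard to intervals. In the smallest cluster, of 116 cells, 3 counts are worth 7.33 CPM. The clusters differed among themselves: the intervals of the 2 larger ones, with 817 and 737 cells, did not overlap for *Pcdh10*, *Cdh4* and *Itga1*, and the latter was the higher. The same held for *Pcdh15*, at 35.1 CPM (27.3 to 44.5) and 51.5 CPM (45.4 to 58.2). Median depth in these 2 clusters was 2289 and 5559 UMIs. The share of all genes that differ in this way was not counted, and a link to depth was not tested.

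The noradrenaline group held *Pcdh15* and 3 members that were nearly absent from adrenaline cells. *Cdh19*, a cadherin of the Schwann cell lineage, was at 22.3 CPM (15.1 to 31.9) in noradrenaline and 0.545 CPM in adrenaline cells, a ratio of 41.0 (14.5 to 160.3). *Itgav*, the alpha subunit that pairs with the most beta subunits, was at 24.6 and 1.498 CPM, a ratio of 16.4 (8.09 to 36.0). *Cdh22*, a neural type II cadherin, was at 15.6 and 2.18 CPM, a ratio of 7.18 (3.57 to 14.7). *Cdh12*, *Cdh6* and *Pcdh7* had under 30 UMIs in both types together and would have been called without that minimum: 17 against 1 UMIs for *Cdh12*, 22 against 6 for *Cdh6* and 16 against 4 for *Pcdh7*, each with the higher count in the smaller noradrenaline class. When cells with under 1000 genes or over 10% mitochondrial UMIs were left out, *Pcdh15* and *Itgav* were still called for noradrenaline cells and *Cdh19* and *Cdh22* were not: *Cdh19* was left with 23 UMIs in noradrenaline and 2 in adrenaline cells, under the minimum for the sum, and *Cdh22*, at 14.3 against 2.40 CPM, fell short of the 2-fold once 10 CPM was added. The sustentacular marker list, which does not include *Cdh19*, summed to 0.611% of its sustentacular-like level in noradrenaline and to 0.158% in adrenaline cells, while *Cdh19* was at 22.3 of 711.0 CPM in noradrenaline cells. The part of carried-over sustentacular RNA in these values was not tested. *Cdh2*, the N-cadherin of neural tissue, was 1.90 times as high (1.57 to 2.29) in noradrenaline cells, at 113.2 against 59.6 CPM, which is under the 2-fold. *Itgb1*, the common beta subunit, was at 254.7 and 229.9 CPM, and the interval of its ratio, 0.983 to 1.25, included 1.

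**Figure D2:**
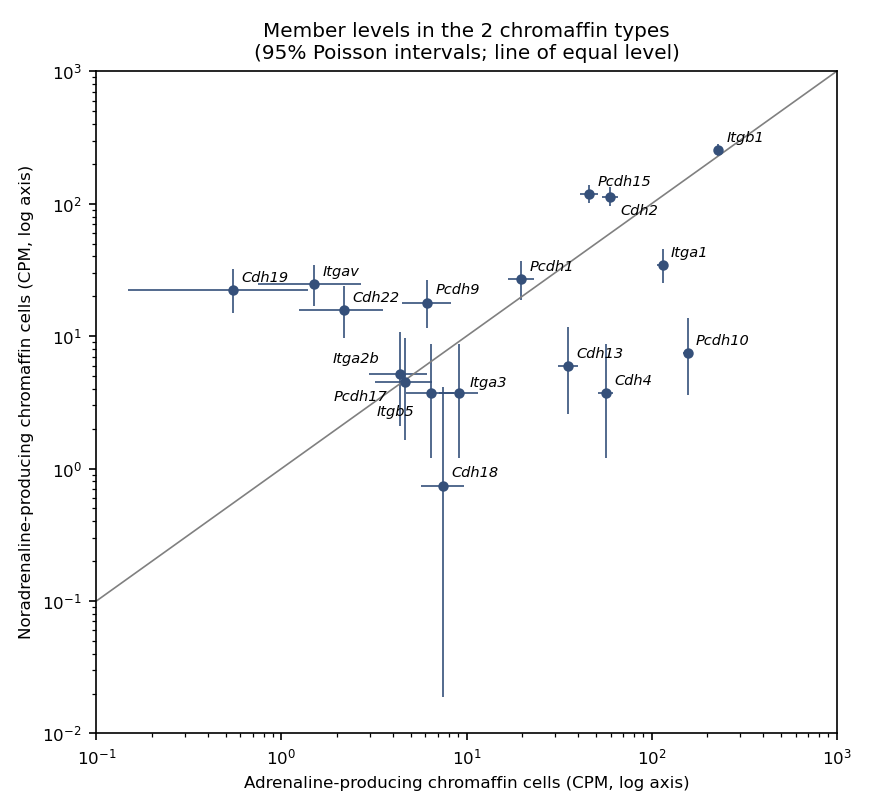
Level of each member with at least 30 UMIs in both chromaffin types together and at least 1 in each, in adrenaline (x axis) and noradrenaline cells (y axis), in CPM on log axes. Bars are 95% Poisson intervals and the grey line marks equal levels. *Pcdh10*, *Cdh4*, *Cdh13* and *Itga1* lie to the right of the line, *Cdh19*, *Itgav*, *Cdh22* and *Pcdh15* above it, and *Itgb1* close to it.

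In *Pcdh10*, *Cdh4* and *Pcdh15* the transitioning-like types differed in the same direction as the chromaffin types whose names they carry. *Pcdh10* was at 129.4 CPM (103.6 to 159.6) in transitioning adrenaline-like and 22.5 CPM (16.2 to 30.3) in transitioning noradrenaline-like cells, a ratio of 5.76 (3.94 to 8.54). *Cdh4* was at 44.6 and 5.34 CPM, a ratio of 8.35 (3.97 to 19.1). *Pcdh15* was at 25.3 and 109.0 CPM, 4.31 times as high (2.63 to 7.55) in transitioning noradrenaline-like cells. The interval of the transitioning adrenaline-like cells overlapped that of the adrenaline cells for *Pcdh10* and *Cdh4* and lay below it for *Pcdh15*. The interval of the transitioning noradrenaline-like cells overlapped that of the noradrenaline cells for *Cdh4* and *Pcdh15* and lay above it for *Pcdh10*. *Cdh22*, at 2.97 and 16.03 CPM, *Cdh6*, at 4.46 and 21.4 CPM, and *Itgav*, at 14.9 and 48.1 CPM, were also higher in transitioning noradrenaline-like cells, by ratios of 5.39 (1.37 to 46.6), 4.79 (1.53 to 24.2) and 3.23 (1.68 to 6.98). *Cdh13* did not follow its type: it was at 8.92 CPM (3.27 to 19.4) in transitioning adrenaline-like and 12.8 CPM (8.22 to 19.1) in transitioning noradrenaline-like cells, where adrenaline cells had 35.5 CPM (31.4 to 40.1). *Itga1* did not either, at 139.8 CPM in transitioning adrenaline-like and 184.9 CPM in transitioning noradrenaline-like cells. Nor did *Cdh19*, at 95.2 and 103.7 CPM, where the interval of the ratio, 0.681 to 1.22, included 1. For *Itgav* the transitioning adrenaline-like interval was 7.13 to 27.3 CPM. It lay above that of adrenaline cells, 0.748 to 2.68 CPM, and overlapped that of noradrenaline cells, 16.9 to 34.5 CPM. The transitioning noradrenaline-like interval of *Itgav*, 38.7 to 59.1 CPM, lay above that of noradrenaline cells. Only 3 *Cdh6* UMIs and 2 *Cdh22* UMIs lie behind the transitioning adrenaline-like values. A separate transitioning adrenaline-like cluster formed under 3 of the 7 clusterings, with 92 to 94 cells.

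**Figure D3:**
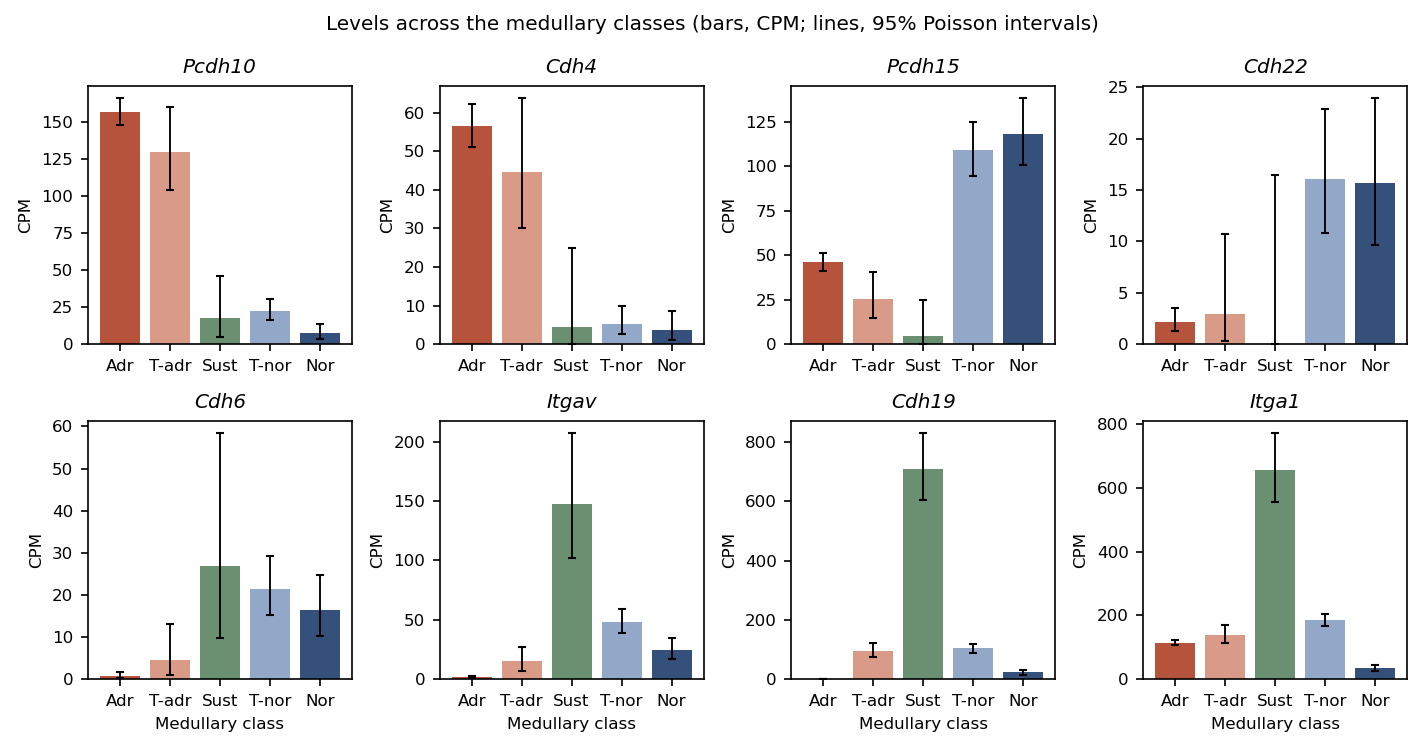
Level of 8 members in adrenaline (Adr), transitioning adrenaline-like (T-adr), sustentacular-like (Sust), transitioning noradrenaline-like (T-nor) and noradrenaline cells (Nor), in CPM on an axis of its own for each gene. Bars start at 0 and lines are 95% Poisson intervals. *Pcdh10* and *Cdh4* are high on the adrenaline side and *Pcdh15* and *Cdh22* on the noradrenaline side, while *Cdh19*, *Itga1* and *Itgav* peak in sustentacular-like cells.

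A promoter window each of *Pcdh10* and *Pcdh15* is shown because these genes moved in opposite directions between the chromaffin types. RefSeq promoter windows (build GRCm38.p6, the same as the mm10 of the submitters' processing notes) were found for 40 of the 60 members, and the 250 bases before the start are printed, 5′ to 3′ on the strand of the gene. *Pcdh10* (ENSMUSG00000049100) has the window chr3:45378148-45378397 on the plus strand, and *Pcdh15* (ENSMUSG00000052613) has chr10:73821617-73821866 on the plus strand. The *Pcdh10* window ends beside the start of its gene at 45378398. The *Pcdh15* window lies within the span of its gene, 73096277 to 74649831, so the start it precedes is an internal one. Capitals mark matches, on either strand, to TGTTCT, the half-site of steroid receptors such as the glucocorticoid receptor, to ACAAAG, bound by SOX factors, or to GGAAG, the core bound by ETS factors.
Pcdh10: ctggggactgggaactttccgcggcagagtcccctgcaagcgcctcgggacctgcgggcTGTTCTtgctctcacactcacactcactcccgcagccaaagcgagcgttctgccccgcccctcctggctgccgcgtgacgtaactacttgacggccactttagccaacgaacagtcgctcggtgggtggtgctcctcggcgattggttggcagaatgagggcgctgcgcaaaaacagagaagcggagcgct
Pcdh15: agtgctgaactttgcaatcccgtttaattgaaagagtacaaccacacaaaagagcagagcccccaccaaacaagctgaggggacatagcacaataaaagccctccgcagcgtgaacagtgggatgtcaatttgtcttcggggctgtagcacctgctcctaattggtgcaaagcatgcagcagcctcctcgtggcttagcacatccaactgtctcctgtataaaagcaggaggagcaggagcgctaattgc
The window of *Pcdh10* holds 1 TGTTCT and that of *Pcdh15* holds none of these motifs. Of all 32851 promoter windows of this length, 16.1% hold TGTTCT, 16.5% ACAAAG and 64.1% GGAAG, and no matches overlapped one another in the windows printed. Among the 45 windows of members the shares were 13.3%, 15.6% and 64.4%.

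Sustentacular-like cells had the highest level of 12 of the 39 members, in all 4 families. Of these, *Cdh24* rested on 1 UMI in these cells, and *Cdh6*, at 26.8 CPM from 6 UMIs, had a ratio to the cortex-like class whose interval, 0.761 to 4.60, included 1. The share of all genes with their highest level in this class was not counted, so the number describes the members only. The same holds for the numbers of members highest in the other classes below. Sustentacular-like cells were compared with resting chromaffin-like cells, the adrenaline and noradrenaline cells together, and a gene was called when its level plus 10 CPM differed at least 4-fold. Only genes with at least 30 UMIs in both classes together were eligible. Of such members, 8 were higher in sustentacular-like cells, where 3.95% of 11098 genes were called, and 4 in chromaffin-like cells, where 3.61% were called. The sustentacular-like values rest on 223617 UMIs, so that 3 counts are worth 13.4 CPM.

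The cadherins of the sustentacular-like cells were *Cdh19* and *Cdh2*. *Cdh19* was at 711.0 CPM (604.8 to 830.5), 182 times (125 to 272) the level in chromaffin-like cells, and had a UMI in 55.7% of the sustentacular-like cells, beside 0.0466% of endothelial-like cells. The next lineage class was the fibroblast-like one, at 58.4 CPM, a ratio of 12.2 (7.37 to 21.4). In that class the sustentacular marker list stood at 8.77% of its sustentacular-like level. *Cdh19* was at 103.7 CPM in transitioning noradrenaline-like and 95.2 CPM in transitioning adrenaline-like cells, and the interval of their ratio, 0.681 to 1.22, included 1. *Cdh19* thus stood in 4 steps, sustentacular-like, both transitioning types, noradrenaline and adrenaline cells, whose intervals did not overlap. The sustentacular marker list stood at 17.4% of its sustentacular-like level in transitioning noradrenaline-like and at 11.2% in transitioning adrenaline-like cells. *Cdh2* was at 277.3 CPM (212.6 to 355.4), 4.08 times (3.09 to 5.31) the level in chromaffin-like cells, at 140.6 CPM in transitioning noradrenaline-like and at 87.7 CPM in transitioning adrenaline-like cells. Unlike *Cdh19* it was found throughout the medulla, with a UMI in 30.1% of sustentacular-like, 30.8% of noradrenaline and 21.1% of adrenaline cells. These shares are not adjusted for depth, whose medians were 1137, 2674 and 3164 UMIs in that order. The *Cdh2* levels, in the same order, were 277.3, 113.2 and 59.6 CPM. *Cdh19* and *Cdh2* were found together in 30 of 176 sustentacular-like cells. *Cdh10*, a neural cadherin with under 30 UMIs in classed cells, was at 35.8 CPM from 8 UMIs in sustentacular-like cells and had no UMI in either chromaffin type.

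Among the protocadherins, *Pcdh7*, a delta-1 protocadherin, was at 89.4 CPM (54.6 to 138.1) in sustentacular-like and 2.30 CPM in chromaffin-like cells, a ratio of 38.9 (19.8 to 76.1). *Pcdh17*, a delta-2 protocadherin known from synapses, was at 85.0 CPM (51.2 to 132.7) and 4.60 CPM, a ratio of 18.5 (10.1 to 32.6). In sustentacular-like cells 5 of the 7 endothelial markers were at 0, where 3 counts are worth 13.4 CPM. The list summed to 0.191% of its endothelial-like level there, and *Pcdh17* stood at 10.4% of its own. The part of carried-over RNA in this *Pcdh17* level was not tested. *Pcdh20* was at 35.8 CPM from 8 UMIs, and *Pcdh1* was at 58.1 CPM (31.0 to 99.4), 2.79 times (1.46 to 4.89) the level in chromaffin-like cells. In the other direction *Pcdh10* was 7.46 times (2.90 to 27.4) and *Pcdh15* 12.8 times (2.29 to 506) as high in chromaffin-like cells, at 133.4 and 57.2 CPM, where sustentacular-like cells had 4 UMIs and 1 UMI. *Cdh4*, with 1 UMI in sustentacular-like cells, was 10.8 times as high (1.93 to 428) in chromaffin-like cells. *Cdh13*, with none, was at 31.0 CPM (27.4 to 34.9) in chromaffin-like cells, 2.31 times a floor of 3 counts over the sustentacular-like class. That ratio is no lower limit, because the interval for 0 UMIs in the sustentacular-like class reaches 16.5 CPM.

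The integrin transcripts found in the sustentacular-like cells included subunits of receptors for collagen, for laminin and for ligands with the arginine-glycine-aspartate motif. *Itga1* and *Itga2*, whose products bind collagen with the beta-1 subunit, were at 657.4 CPM (555.4 to 772.6) and 161.0 CPM (112.8 to 222.9). For *Itga1* this was 6.43 times (5.36 to 7.66) the chromaffin-like level of 102.3 CPM, and for *Itga2*, with 2 UMIs in chromaffin-like cells, 699 times (180 to 5995). *Itga6*, a laminin receptor subunit, was at 143.1 CPM against 0.691 CPM, a ratio of 207 (85.5 to 606), and its partner *Itgb4*, the beta subunit of hemidesmosomes, was at 62.6 CPM (34.2 to 105.0) with 7.39% of cells holding a UMI. *Itgav* was at 147.6 CPM against 5.06 CPM, a ratio of 29.1 (18.0 to 46.8), and its partner *Itgb8*, known from the activation of latent TGF-beta, was at 85.0 CPM against 2.65 CPM, a ratio of 32.1 (16.5 to 61.6). *Itga4*, a receptor subunit for VCAM1 and fibronectin, was at 67.1 CPM (37.5 to 110.6) from 15 UMIs. *Itgb1* was at 366.7 CPM, 1.57 times (1.24 to 1.96) its chromaffin-like level, beside a carry-over estimate of 465.5 CPM (defined with the integrin pairs). By the rule given there, *Itga1*, *Itga6* and *Itgb1* did not count as present in sustentacular-like cells. The part of carried-over RNA in their levels was not tested. In the transitioning-like cells *Itga2* was at 26.2 CPM on the noradrenaline and 13.4 CPM on the adrenaline side, *Itga6* at 21.4 and 10.4 CPM, and *Itgb8* at 9.09 and 14.9 CPM, each between the sustentacular-like and the chromaffin-like values. These clusters were named for carrying both chromaffin and sustentacular markers, so values in between are no separate result. *Itga6* did not count as present on either side.

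*Itga2* and *Itga1* are neighbours on chromosome 13 with no protein-coding gene between them, and their promoter sequences are shown because both genes had their highest level in the same class. *Itga2* (ENSMUSG00000015533) spans 114833081 to 114932100 and *Itga1* (ENSMUSG00000042284) spans 114958079 to 115101964, 26.0 kb apart and both on the minus strand. The windows are chr13:114932101-114932350 for *Itga2* and chr13:115101965-115102214 for *Itga1*, printed 5′ to 3′ on the minus strand with capitals as above.
Itga2: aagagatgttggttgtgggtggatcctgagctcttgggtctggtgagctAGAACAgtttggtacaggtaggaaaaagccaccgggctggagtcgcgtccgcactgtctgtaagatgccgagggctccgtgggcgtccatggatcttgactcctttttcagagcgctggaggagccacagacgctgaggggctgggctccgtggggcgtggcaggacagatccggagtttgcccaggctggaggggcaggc
Itga1: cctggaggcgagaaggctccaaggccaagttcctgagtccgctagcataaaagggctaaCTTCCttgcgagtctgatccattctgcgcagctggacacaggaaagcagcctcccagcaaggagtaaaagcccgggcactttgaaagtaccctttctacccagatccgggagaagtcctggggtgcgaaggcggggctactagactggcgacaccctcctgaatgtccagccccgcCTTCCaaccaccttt
*Itga2* holds 1 TGTTCT, on the other strand as AGAACA, and *Itga1* holds 2 GGAAG, on the other strand as CTTCC. Across the medullary classes the neighbours did not move alike: *Itga2* had no UMI in adrenaline cells, where *Itga1* was at 114.8 CPM. In endothelial-like cells *Itga1* was at 136.2 CPM and *Itga2* at 29.3 CPM, and in the fibroblast-like class they were at 467.3 and 27.5 CPM.

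Endothelial-like cells had the highest level of 9 members. Of these, *Itgb1*, *Itga3* and *Itga2b* had ratios to the fibroblast-like class whose intervals included 1. The intervals were 0.866 to 1.17, 0.388 to 3.88 and 0.434 to 13.8, in that order. *Cdh5*, the VE-cadherin of endothelial junctions, was at 472.0 CPM (454.4 to 490.2) and in 60.1% of these cells. *Pcdh17* was at 815.5 CPM (792.3 to 839.3) and in 67.3% of them. *Pcdh12*, an endothelial protocadherin, was at 102.9 CPM, and *Itgb3*, a partner of *Itgav* in vessels and of *Itga2b* in platelets, at 66.6 CPM. The alpha subunits *Itga6*, at 233.4 CPM, and *Itga5*, for fibronectin, at 46.5 CPM, were also highest here, and for *Itga6* the interval of the ratio to the fibroblast-like class, 0.990 to 1.76, included 1. The 3 endothelial-like clusters, of which 1 was cycling, all held these members: *Cdh5* ranged from 403.4 to 530.0 CPM, *Pcdh17* from 661.5 to 967.2 CPM, *Pcdh12* from 74.5 to 122.1 CPM and *Itgb3* from 45.8 to 80.4 CPM, in each case highest in the resting cluster with the deeper cells (median 3011 UMIs).

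Endothelial members were also found in other classes, where they are given beside the endothelial marker list. In the fibroblast-like class *Cdh5* stood at 54.6% of its endothelial-like level, *Pcdh17* at 53.1%, *Pcdh12* at 46.7% and *Itgb3* at 36.1%, beside 58.2% for the marker list. In the immune-like class the shares were 11.0%, 12.6%, 15.6% and 12.6%, beside 12.1%. In the cortex-like class they were 3.44%, 3.73%, 3.41% and 2.82%, beside 3.24%. The ratio of *Cdh5* to *Pcdh17* UMIs was 0.579 (0.552 to 0.607) in endothelial-like cells, 0.595 (0.441 to 0.798) in fibroblast-like, 0.507 (0.373 to 0.684) in immune-like and 0.533 (0.471 to 0.603) in cortex-like cells, whose intervals all overlapped. In chromaffin-like cells the ratio was 0.0690 (0.0182 to 0.186), from 4 and 58 UMIs, and in sustentacular-like cells 0.0526 (0.00127 to 0.331), from 1 and 19 UMIs. The *Pcdh17* level of chromaffin-like cells was 6.24 CPM, beside a carry-over estimate of 5.71 CPM (defined with the integrin pairs), and 18 of its 58 UMIs came from the 92 cycling cells. In adrenaline cells it was 4.63 CPM beside an estimate of 5.10 CPM, and in transitioning-like cells 19.8 CPM on the noradrenaline and 25.3 CPM on the adrenaline side, beside estimates of 47.3 and 29.7 CPM. In sustentacular-like cells the estimate was 309.8 CPM, above the measured 85.0 CPM. The estimate adds up all other classes, not the endothelial-like one alone. In sustentacular-like cells the fibroblast list stood at 70.8% of its own-class level and the endothelial list at 0.191%. On the noradrenaline and adrenaline side of the transitioning-like cells, the fibroblast list stood at 9.66% and 6.31%. The endothelial list stood there at 0.59% and 0.25%. The part of carried-over RNA, endothelial or other, in these values was not tested.

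**Figure D4:**
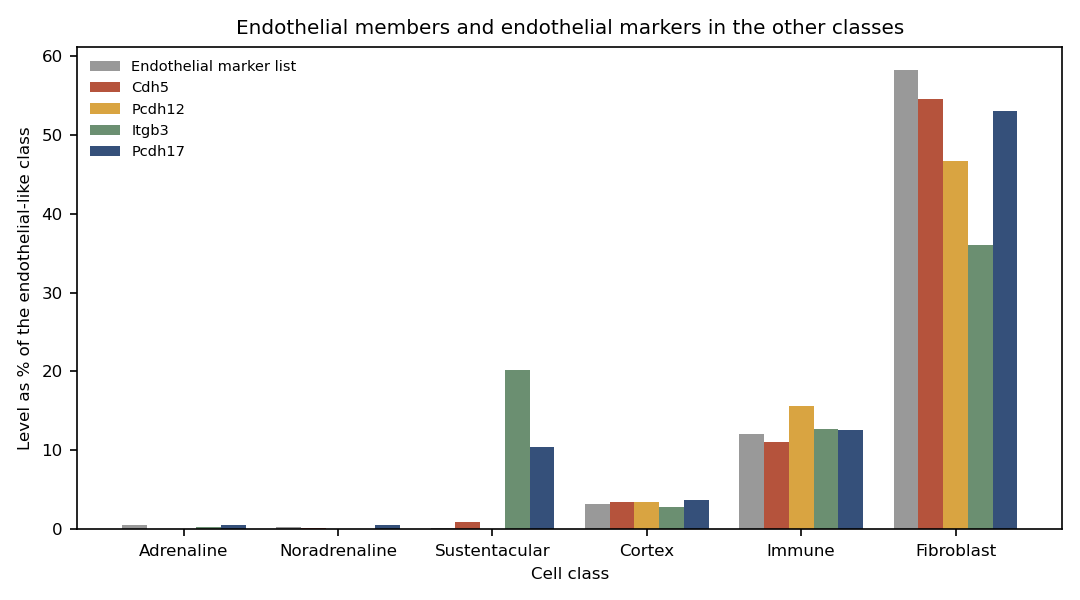
Level of *Cdh5*, *Pcdh12*, *Itgb3*, *Pcdh17* and the summed endothelial marker list in 6 other classes, as a percentage of the level in endothelial-like cells. In the cortex-like, immune-like and fibroblast-like classes the list stands at 3.24%, 12.1% and 58.2%, and in the last the genes range from 36.1% for *Itgb3* to 54.6% for *Cdh5*. In sustentacular-like cells *Pcdh17* reaches 10.4% and *Itgb3* 20.1% (3 UMIs), beside 0.191% for the list.

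The window of *Pcdh17* (ENSMUSG00000035566) is shown because the ratio of *Cdh5* to *Pcdh17* UMIs in sustentacular-like and in chromaffin-like cells lay below that in endothelial-like cells. It is chr14:84443313-84443562 on the plus strand.
Pcdh17: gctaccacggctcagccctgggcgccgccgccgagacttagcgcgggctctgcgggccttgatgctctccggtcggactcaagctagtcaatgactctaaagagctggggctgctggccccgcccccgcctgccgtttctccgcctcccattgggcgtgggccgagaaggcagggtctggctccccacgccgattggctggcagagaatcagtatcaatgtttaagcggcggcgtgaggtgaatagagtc
None of the 3 motifs is in it, and 64.8% of its bases are G or C.

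The cortex-like class, the adrenal cortex that remained after dissection, had the highest level of 1 member with enough UMIs, *Cdh9*, a neural cadherin at 2.12 CPM from 52 UMIs. Its cells shared *Cdh2* with the medulla, at 47.1 CPM (44.5 to 49.9), and the 4 cortex-like clusters ranged from 43.0 to 52.7 CPM. Other members differed between the clusters. *Cdh6*, a cadherin known from the kidney, was at 50.1 CPM (44.4 to 56.4) in the cluster led by *Ly6d*, *Ecrg4* and *Wnt4* and at no more than 6.25 CPM in the other 3. *Itga9*, an alpha subunit for tenascin and VCAM1, was at 177.5 CPM (166.8 to 188.7) in the cluster with fasciculata markers, at 111.3 CPM in the *Wnt4* cluster and at 33.6 CPM (30.2 to 37.3) in the cluster with inner cortex or X-zone markers. *Itgb5*, a partner of *Itgav*, followed the same order with 171.2, 122.0 and 85.5 CPM. *Pcdh7* was low in the *Wnt4* cluster, at 2.35 CPM, and between 15.4 and 28.1 CPM in the other 3. *Itga6* was at 154.8 CPM in the *Wnt4* cluster and at 34.4 CPM in the fasciculata cluster, and endothelial markers summed to 12.4% of their endothelial-like level in the former and 0.493% in the latter. The part of carried-over endothelial RNA in the *Itga6* values was not tested.

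The immune-like cells, which carried macrophage markers, had the highest level of 6 members, all integrin subunits. *Itgam*, the alpha subunit of the complement receptor of macrophages, was at 75.0 CPM (60.9 to 91.4). *Itgal*, the alpha subunit of LFA-1, was at 59.7 CPM (47.2 to 74.5). Their common partner *Itgb2* was at 94.9 CPM (78.9 to 113.2), 31.8 times (19.1 to 56.4) the level in the next class. *Itgb5* was at 244.2 CPM (218.1 to 272.5), 2.03 times (1.43 to 2.97) the next class, and *Itga4* at 133.9 CPM (114.8 to 155.3), 1.997 times (1.18 to 3.64) the next class, which was the sustentacular-like one. The T cell-like cells, with 59516 UMIs in all, gave 7 UMIs of *Itga4*, 7 of *Itgb7*, 8 of *Itgal*, 5 of *Itgb2* and 1 of *Itgam*. Their *Itgb7*, the partner of *Itga4* in gut homing, was at 117.6 CPM (47.3 to 242.3) against 16.1 CPM (9.95 to 24.6) in the macrophage-type cells. *Itgax*, which lies 11.0 kb from *Itgam* on chromosome 7, had 20 UMIs in the immune-like class, and *Itgad*, the next gene of that row, had none in any barcode.

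In the fibroblast-like class 4 members had their highest level. *Cdh11*, a cadherin of mesenchyme, was at 58.4 CPM (34.0 to 93.5), 4.35 times (1.26 to 23.2) the next class. *Pcdh18* was at 65.3 CPM (39.3 to 102.0), 7.03 times (3.93 to 12.1) the next class. *Itga8*, an alpha subunit for nephronectin, was at 55.0 CPM, and *Itga9* at 103.1 CPM, where the interval of the ratio to the cortex-like class, 0.809 to 1.72, included 1. *Cdh11* and *Pcdh18* were at 0.526 and 9.29 CPM in endothelial-like cells.

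Integrins act as pairs, so 24 alpha-beta pairs known from mammals were examined for both subunits. A subunit was counted as present where the lower bound of its level was at least 10 CPM and its level was at least 3 times a carry-over estimate, which adds up, over the other classes, the share of their markers found in the class times the level of the gene there. The bound of 10 CPM is harder to reach in classes with few UMIs, so the numbers of pairs are not on an equal footing. In T cell-like, sustentacular-like and endothelial-like cells 3 counts are worth 50.4, 13.4 and 0.526 CPM. Both subunits were present for 10 pairs in endothelial-like, 6 in immune-like, 5 in cortex-like, 3 in T cell-like, 3 in transitioning noradrenaline-like, 2 in noradrenaline, 1 in transitioning adrenaline-like and 1 in adrenaline cells. The pair of *Itga1* and *Itgb1* was the one of adrenaline cells, and noradrenaline cells had it together with *Itgav* and *Itgb1*. Transitioning adrenaline-like cells had the same pair as adrenaline cells, and transitioning noradrenaline-like cells had *Itga1*, *Itga2* and *Itgav* with *Itgb1*. Cortex-like cells had *Itga5*, *Itga6*, *Itga9* and *Itgav* with *Itgb1*, and *Itgav* with *Itgb5*. Endothelial-like cells had *Itgav* with *Itgb1*, *Itgb3* and *Itgb5*, and *Itgb1* with 7 further alpha subunits. Immune-like cells had *Itgal* and *Itgam* with *Itgb2*, *Itgav* with *Itgb5*, and *Itga4*, *Itga9* and *Itgav* with *Itgb1*.

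Sustentacular-like cells had 1 pair by this rule, *Itgav* and *Itgb8*. The fibroblast list summed there to 70.8% of its fibroblast-like level, with 3 of its 6 genes at 0, and *Col3a1* was among the 10 leading genes of the sustentacular-like cells. The estimate includes that share, and whether these cells make or carry this RNA was not tested. With the fibroblast-like class left out of the estimate, an alternative chosen after the data had been seen, 8 pairs had both subunits present: *Itga1*, *Itga2*, *Itga4*, *Itga6* and *Itgav* with *Itgb1*, *Itgav* with *Itgb5* and *Itgb8*, and *Itga6* with *Itgb4*. The numbers for chromaffin-like, cortex-like, endothelial-like and immune-like cells did not change. *Itgav* with *Itgb8* and *Itga6* with *Itgb4* were counted in no other lineage class under either estimate. No pair was counted in the fibroblast-like class. *Itga1* was present there at 467.3 CPM, while *Itgb1*, at 632.3 CPM, was under 3 times its carry-over estimate of 437.2 CPM. That estimate includes the 58.2% share of the endothelial list, and whether these cells make or carry *Itgb1* RNA was not tested.

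**Figure D5:**
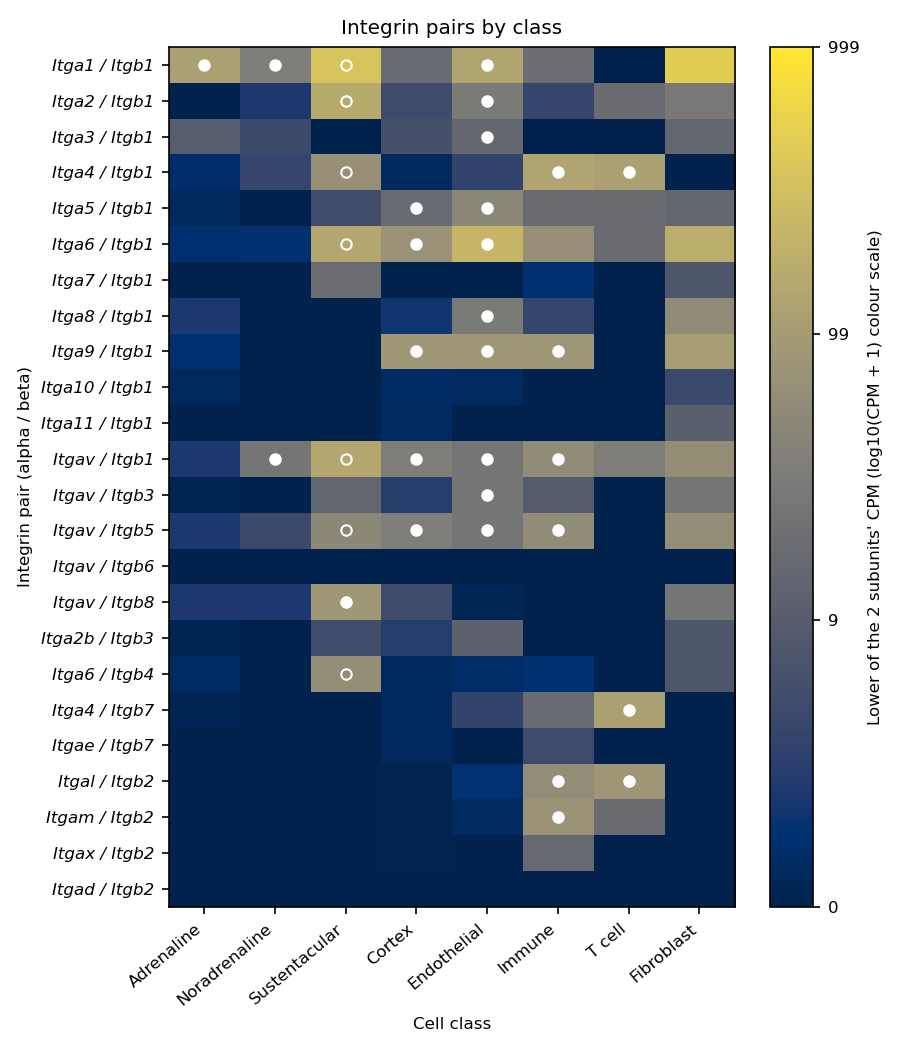
The lower of the levels of both subunits, in CPM on a log10(CPM + 1) colour scale, for 24 integrin pairs (rows) in 8 classes (columns). Filled dots mark pairs with both subunits present, and open dots those counted when the fibroblast-like class was left out of the carry-over estimate. Endothelial-like cells have 10 filled dots, and sustentacular-like cells have 1 filled and 7 open dots.

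Genes that work with these receptors were read the same way, beside 5.64% of all genes tested that were called for any lineage class. Of 29 catenins and integrin-linked adaptors, 27 reached 30 UMIs and 4 were called for a lineage class. *Tln2*, a talin that links integrins to actin, was called for chromaffin-like cells at 274.1 CPM (263.5 to 284.9). *Fermt3*, the kindlin of blood cells, at 215.1 CPM, *Parvg*, at 57.4 CPM, and *Ptk2b*, a focal adhesion kinase, at 43.6 CPM, were called for immune-like cells. Of 19 genes for integrin ligands, 14 reached the minimum and 3 were called. *Postn*, the matrix protein periostin, was called for sustentacular-like cells at 684.2 CPM (580.1 to 801.6). *Vcam1*, a ligand of *Itga4* integrins, was called for immune-like cells at 1003 CPM (949.9 to 1059). *Spp1*, osteopontin, was called for cortex-like cells at 86.5 CPM (82.9 to 90.3). Of 84 other genes of the cadherin superfamily, among them the clustered protocadherins and the desmosomal cadherins, 36 reached the minimum and none was called for a class.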

How the data were processed

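The data are 1 library of adrenal medulla cells. The authors deposited a matrix of UMI counts per gene and barcode, from Cell Ranger 4.0.0 and build mm10 by the labels and headers, and not normalized. Each of the 11214 barcodes has at least 500 UMIs (51421499 in all), and cells with 500 to 5000 genes and at most 20% mitochondrial UMIs were kept.

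Counts were clustered with Seurat 5.3.0 (R 4.3.3), with 2000 variable features that exclude the 60 members, 10 principal components and Louvain resolution 0.4, on 1 thread. A cluster was named from 3 or more markers of a list, each in 50% or more of the cells (25% for sustentacular markers), and medullary clusters were clustered again in 2 passes. Scrublet (scanpy 1.11.5) marked 669 doublets (6.60%), which were not removed as such, and 518 of them lay in the mixed clusters that were left out. Levels have exact Poisson, ratios exact conditional and shares exact binomial intervals. UMI counts without replicates allow no test, so calls rest on fixed folds with a pseudocount of 10 CPM and a minimum of 30 UMIs. The members, lists and thresholds were chosen with earlier results of these data known. Named are members called in a comparison or at 50 CPM or more in a lineage class (26 members), with others by count. The calling steps were tested on simulated data.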

Additional observations from a re-analysis of the deposited data

How the results depend on the processing

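No paired analysis was possible because there is 1 library. No direction reversed. With a stricter filter on cells (1000 or more genes, 10% or less mitochondrial), no sustentacular-like or fibroblast-like class formed, 2 members were called for the endothelial-like class (beside 1.21% of all genes tested, with that share in brackets from here on), 2 were higher in noradrenaline cells (2.57%), and 3 integrin pairs were counted in immune-like cells. With the mean of per-cell CPM, 1 member was called for the fibroblast-like class (0.594%), 2 were higher in chromaffin-like than in sustentacular-like cells (3.75%), and pairs numbered 2 in sustentacular-like and 1 in fibroblast-like cells. With a pseudocount of 1 CPM, 4 members were called for the chromaffin-like (4.55%) and 2 for the fibroblast-like class (0.65%), and 7 were higher in chromaffin-like than in sustentacular-like cells (18.3%). Without a minimum of UMIs, 7 members were higher in noradrenaline cells (0.898%). With the fibroblast-like class left out, chosen after the data had been seen, 2 members were called for the chromaffin-like (1.86%) and 3 for the endothelial-like class (1.06%), and 8 pairs were counted in sustentacular-like cells. Across the 6 other clusterings and the mean of per-cell CPM, the log2 ratio of adrenaline over noradrenaline cells, with 10 CPM added, stayed between 3.11 and 3.37 for *Pcdh10*, between 2.20 and 2.42 for *Cdh4* and between -1.29 and -1.12 for *Pcdh15*. Member genes allowed among the variable features, resolution 0.2, 30 principal components and removal of doublets each left the transitioning-like cells in 1 cluster. Depth limits the sustentacular-like values: 56 of 176 cells had under 1000 UMIs.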

Other observations

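The transitioning-like cells held 2082 member UMIs on the noradrenaline side, 1113 CPM (1065 to 1162), and 647 on the adrenaline side, 962.0 CPM (889.3 to 1039), both above the 717.1 CPM of noradrenaline and the 773.6 CPM of adrenaline cells and below the 3188 CPM of sustentacular-like cells. Cadherins made up 321.2 and 263.2 CPM of these sums, where adrenaline cells had 166.2 CPM and noradrenaline cells 195.1 CPM. The transitioning-like clusters were named for carrying both chromaffin and sustentacular markers, so sums in between are no separate result. Cycling chromaffin-like cells, 92 in number, held *Pcdh10* at 104.8 CPM, *Cdh4* at 54.9 CPM and *Itga1* at 84.8 CPM, and *Pcdh17* at 29.9 CPM, where adrenaline cells had 4.63 CPM, and endothelial markers summed there to 1.04% of their endothelial-like level.

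*Cdh7* and *Cdh19* are neighbours on chromosome 1 with no protein-coding gene between them, and *Cdh7* had 3 UMIs in all barcodes.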
